A study of Mus musculus with 2 samples.

Results

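The cells described here carry transcripts of the granule proteases of basophils and mast cells together with the β chain of the high-affinity IgE receptor. They were chosen by their own counts in 2 single-cell RNA libraries of mouse marrow, in unique molecular identifiers (UMIs, each standing for 1 captured transcript). A cell was kept with at least 500 UMIs, at least 300 detected genes and at most 10% mitochondrial UMIs. A kept cell was a member when it held at least 5 UMIs of Mcpt8, Prss34 and Cpa3 together, at least 1 UMI of Ms4a2 and fewer than 100 UMIs of Mpo, Elane and Prtn3 together. The choice gave 73 of 10665 femur cells and 48 of 6794 ectopic cells, which makes 121 members among 17459 cells. These genes chose the cells, so their levels are given below as a description and support nothing.

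The femur library came from marrow of the femur. The ectopic library came from the marrow of bone that formed around a subcutaneous implant, which held 8 µg of the bone-inducing factor BMP-2 on 40 mg of β-TCP (a calcium phosphate carrier) and was harvested after 4 weeks. Both libraries combined hematopoietic cells of WT (C57BL6J) mice with CXCL12-abundant reticular (CAR) cells, the stromal niche cells of marrow, taken from Cxcl12-GFP reporter mice by collagenase digestion, magnetic depletion and sorting. Each tissue is 1 library, and the number of mice behind it is not given in the sources used here, so the tissues are compared without any test.

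Basophils are rare granulocytes that arise in the marrow from progenitors under the transcription factor GATA2 and the cytokine interleukin 3. Antigen bound to IgE on their surface cross-links the receptor FcεRI and releases histamine, lipid mediators, interleukin 4 and chemokines. Mast cells share this receptor and part of this path, but mature in tissues under stem cell factor and its receptor KIT, and store tryptases and chymases.

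The starts of the genes that define these cells are shown first, because Gata2 was among the genes most enriched in the members and its protein binds the core letters GATA. The 250 bases before the transcription start were taken from RefSeq on build GRCm38.p6, which is older than the build GRCm39 of the counts, so the coordinates hold for the RefSeq table only. Matches to AGATAA or AGATAG, or to TGATAA or TGATAG, were searched on both strands with overlaps included, and are in capitals.
Mcpt8, chr14:56085198-56085447, minus strand: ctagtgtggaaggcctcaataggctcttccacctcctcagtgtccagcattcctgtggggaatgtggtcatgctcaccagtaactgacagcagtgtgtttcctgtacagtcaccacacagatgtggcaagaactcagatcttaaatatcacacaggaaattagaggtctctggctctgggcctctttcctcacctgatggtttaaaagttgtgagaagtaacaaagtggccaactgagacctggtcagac
Prss34, chr17:25298144-25298393, plus strand: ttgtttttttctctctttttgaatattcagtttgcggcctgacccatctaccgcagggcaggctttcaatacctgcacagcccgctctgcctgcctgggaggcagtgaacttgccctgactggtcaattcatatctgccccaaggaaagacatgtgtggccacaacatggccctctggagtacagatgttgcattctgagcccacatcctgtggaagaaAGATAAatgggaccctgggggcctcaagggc
Ms4a2, chr19:11623720-11623969, minus strand: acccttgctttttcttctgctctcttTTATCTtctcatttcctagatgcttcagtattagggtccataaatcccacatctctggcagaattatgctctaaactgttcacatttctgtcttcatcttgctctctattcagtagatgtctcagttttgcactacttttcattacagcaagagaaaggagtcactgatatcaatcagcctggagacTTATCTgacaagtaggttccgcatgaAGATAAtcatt
Cd200r3, chr16:44943428-44943677, plus strand: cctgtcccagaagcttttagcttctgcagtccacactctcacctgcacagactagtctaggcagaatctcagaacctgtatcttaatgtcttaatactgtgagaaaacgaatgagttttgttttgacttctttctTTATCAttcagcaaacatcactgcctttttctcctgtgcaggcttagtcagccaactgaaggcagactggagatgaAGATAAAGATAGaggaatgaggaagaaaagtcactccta
The window of Prss34 held 1 match, which began 31 bases before the start. That of Ms4a2 held 3, at 224, 37 and 11 bases before the start, and that of Cd200r3 held 3, at 115, 39 and 33 bases, of which the last pair lie end to end. Mcpt8 held none of these letters in this window. Of the windows not printed, Cpa3 (chr3:20242182-20242431, minus strand) held 1 match at 46 bases and Fcer1a (chr1:173227230-173227479, minus strand) held 1 at 92 bases. So 5 of these 6 genes had a match, against 26.5% of 32851 promoter windows of the same length. The 6 genes were picked from the choice itself and from the highest folds here, so these shares are no test. A match describes letters, not a bound site.

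Across the libraries, the femur matrix held 123009924 UMIs over 11148 barcodes and the ectopic matrix 86018367 over 7214. The libraries shared 26 barcode sequences, 2 of them among the members. Members had a median of 9156 UMIs in femur (range 556 to 50083) and 9744.5 in ectopic bone (4844 to 43552), close to the medians of all kept cells, 8661 and 9311. An EGFP UMI was found in 1 femur member and in none of the ectopic members, and no member was CAR-like (at least 10 UMIs of Cxcl12, Lepr and Kitl together).

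Members made up 0.684% of femur cells (95% Clopper-Pearson interval 0.537% to 0.860%) and 0.707% of ectopic cells (0.521% to 0.936%). The ratio of the shares, ectopic over femur, was 1.03 (0.702 to 1.51), so a difference was not detectable at this number of cells. These intervals, like all others below, cover counting error only and not the spread between animals. The thresholds lay inside a continuum. In femur 19 members and in ectopic bone 10 had only 5 to 9 protease UMIs. Outside the limit, 66 femur and 42 ectopic cells had an Ms4a2 UMI and too few protease UMIs, 12 and 6 of them with 3 or 4. Of these cells left out, 44 and 27 had 0 protease UMIs. A Cd200r3 UMI was found in 20 and 13 of them, and at least 5 Ccl3 UMIs in 22 and 14. The receptor limit alone kept out 6 femur cells and no ectopic cell, and the Mpo, Elane and Prtn3 limit alone kept out 4 femur cells (166 to 358 UMIs) and 1 ectopic cell (152 UMIs).

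The genes of the choice were high in the member sums, as the choice requires. All levels below are UMIs summed over the members of a library and scaled to 1000000 UMIs (CPM), from 861237 UMIs in femur and 688273 in ectopic bone. Prss34, a serine protease of basophil granules, stood at 10882 CPM in femur and 12319 in ectopic bone. Mcpt8, the serine protease by which mouse basophils are usually identified, stood at 7861 and 7211 CPM. Cpa3, the carboxypeptidase of basophil and mast cell granules, stood at 1523 and 1605 CPM, and Ms4a2 at 909.2 and 1021 CPM.

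The label names basophils and mast-lineage cells, and 15 mast cell marker genes were looked at beside it. Mcpt1, Mcpt2, Mcpt4, Mcpt9, Cma2, Tpsab1, Tpsb2 and Tpsg1, the chymases and tryptases of mast cell granules, and Mrgprb1 and Mrgprb2, mast cell receptors for basic peptides, had 0 UMIs in both libraries. That allows up to 3.48 CPM in femur and 4.36 in ectopic bone. Cma1, another chymase, had 1 UMI in femur. Kit, the receptor of stem cell factor, had a UMI in 10 of 73 femur and 6 of 48 ectopic members, and Mitf, a transcription factor of mast cells, in 9 and 5. The other genes of the list were higher than in other cells. Itgb7, an integrin chain of mast cell progenitors and lymphocytes, stood at 220.6 and 181.6 CPM against 62.5 and 83.1, and Il1rl1, the receptor of interleukin 33, at 90.6 and 114.8 CPM against 4.86 and 5.11. Of the 5 markers in the label, all were found in both libraries, Gata2 at 1059 and 1180 CPM. The cells are called basophil-marker cells or members here.

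Genes that took no part in the choice were also far above other cells. Measured against all other cells of the same library and taking the smaller of both folds, which selects for genes high in both tissues, the 20 genes of highest fold held the 4 genes of the choice and Gata2, and 15 others. Fcer1a, the IgE-binding α chain, stood at 560.8 CPM in femur members and 804.9 in ectopic members, against 0.207 and 0.58 CPM in other cells. Cd200r3, an activating receptor of basophils and mast cells, stood at 1025 and 1220 CPM against 1.28 and 1.96. Csrp3, a LIM-domain protein known from striated muscle, stood at 366.9 and 402.5 CPM against 0.645 and 0.331, and Cyp11a1, the enzyme that starts steroid synthesis from cholesterol, at 516.7 and 505.6 CPM against 1.4 and 1.27. The others were Alox15, Fgf3, Htr1b, Il6, Grm6, Il4, C3ar1, Adamtsl1, Samd13, Itga2b and Rnase12. The last of the 20, Rnase12, stood 85.6-fold above other cells in the library with the smaller fold.

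Shares of cells with a UMI were compared with B lineage cells, which should lack these genes, at like depth. Thinning of every cell to 3000 UMIs left out 3 femur members and none in ectopic bone. Fcer1a then had a UMI in 62.9% of femur members (44 of 70) and 64.6% of ectopic members (31 of 48), against 0.035% and 0.178% of B lineage cells (at least 5 UMIs of Cd79a and Cd79b together). Cd200r3 had a UMI in 82.9% and 83.3%, against 0.071% and 0.133% in B lineage cells. Il4, the cytokine of type 2 immunity, had a UMI in 35.7% and 43.8%, against 1 of 2829 and 0 of 2251 B lineage cells. Without thinning the Fcer1a shares were 71.2% and 91.7%, at median depths of 9156 and 9744.5 UMIs in members and 6528.5 and 6679 in B lineage cells.

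The IgE receptor and its signalling chain were present nearly whole. Fcer1g, the γ chain shared with other Fc receptors, stood at 1316 CPM in femur and 1361 in ectopic members. Of 20 genes of receptor and proximal signalling, 19 reached 50 UMIs over both sums, the minimum for a ratio. The adaptors Gab2 (650.2 and 719.2 CPM) and Lat2 (256.6 and 319.6 CPM) were among the higher ones, and the kinases Lyn (344.9 and 305.1 CPM), Fyn (296.1 and 276.1 CPM) and Syk (241.5 and 170 CPM) followed. Summed over the 20 genes, the level was 6262 and 6484 CPM in members, against 4365 and 4254 CPM in other cells. Transcripts of this list as a whole are thus not particular to members.

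Receptors for cytokines were led by the β chain of the interleukin 3 receptor. Csf2rb, the chain shared by the receptors of interleukin 3, interleukin 5 and GM-CSF, stood at 571.3 CPM in femur and 610.2 in ectopic members, and Csf2rb2, the chain used for interleukin 3 alone, at 105.7 and 111.9 CPM. Il3ra, the binding chain, stood at 73.2 and 94.4 CPM. Il18rap (435.4 and 502.7 CPM) and Il18r1 (268.2 and 222.3 CPM), both chains of the interleukin 18 receptor, were high, with Il1rl1 as given above. Crlf2, the receptor of thymic stromal lymphopoietin, stood at 90.6 and 103.2 CPM. Il5ra had 0 UMIs in femur and 1 in ectopic members, and Ptgdr2, the prostaglandin D2 receptor, had 0 in both.

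Mediator genes covered histamine and leukotrienes. Hdc, the enzyme that makes histamine, stood at 1840 CPM in femur and 1829 in ectopic members, and Slc18a2, which loads it into vesicles, at 219.4 and 228.1 CPM. Alox5 and Alox5ap, which start leukotriene synthesis, stood at 415.7 and 847.6 CPM in femur and 448.9 and 969.1 CPM in ectopic members. Ltc4s, the leukotriene C4 synthase, had 1 and 3 UMIs, and Hpgds, the prostaglandin D synthase of mast cells, had 0 and 1.

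Among secreted proteins chemokines were highest. Ccl4 and Ccl3, chemoattractants for myeloid and lymphoid cells, stood at 2586 and 2088 CPM in femur and 4519 and 3480 CPM in ectopic members. Ccl6 stood at 1285 and 1152 CPM and Ccl9 at 671.1 and 897.9 CPM. Growth factors were Hgf at 546.9 and 470.7 CPM, Csf1, the growth factor of macrophages, at 325.1 and 624.8 CPM, and Osm at 502.8 and 433 CPM. Il13 had 8 and 9 UMIs in all, and Areg, Il3, Il5, Csf2 and Lif had none.

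The members were not uniform. Protease UMIs per cell ran from 5 to 1106 in femur (median 31) and from 5 to 1967 in ectopic bone (median 32.5). For description the members were split into ranges after their values were seen. Members with no Cd200r3 UMI and a Kit or Cd34 UMI are called progenitor-range, a name for the range and not a cell type. Of the rest, members with at least 100 protease UMIs per 10000 UMIs are called protease-rich and the others protease-poor.

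**Figure D1:**
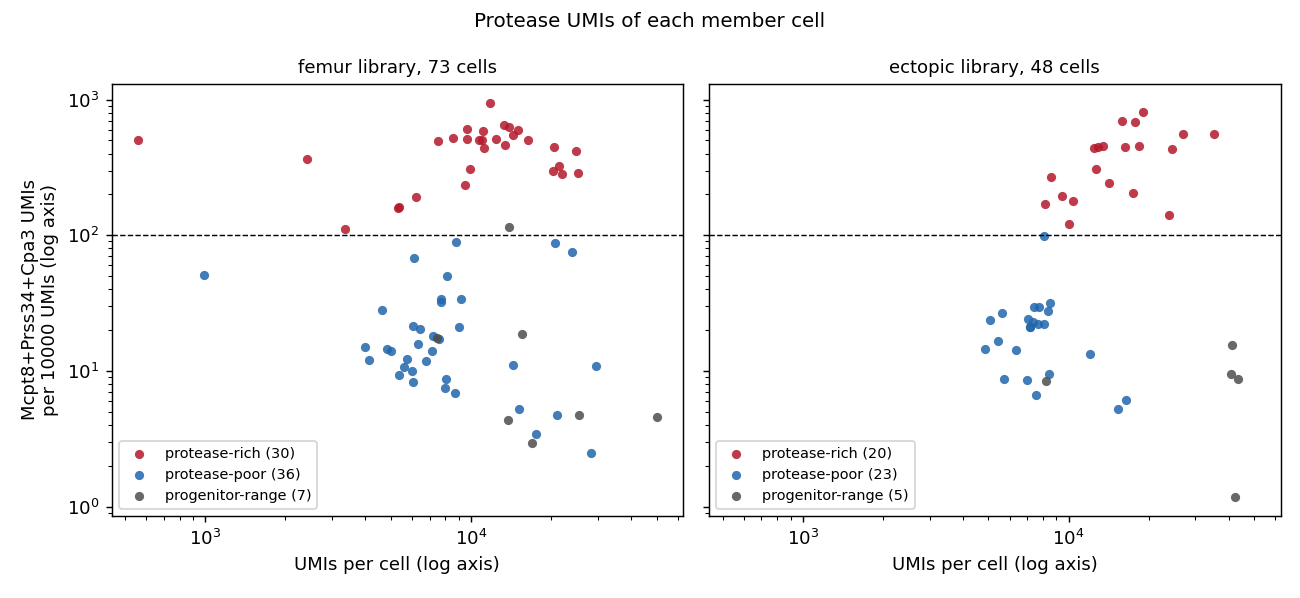
Each point is 1 member cell, placed by its UMIs (x, log axis) and its Mcpt8, Prss34 and Cpa3 UMIs per 10000 UMIs (y, log axis), with the dashed line at 100. Protease-rich cells numbered 30 in femur and 20 in ectopic bone, protease-poor cells 36 and 23, and progenitor-range cells 7 and 5.

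Protease-rich cells were 41.1% of femur members (95% interval 29.7% to 53.2%) and 41.7% of ectopic members (27.6% to 56.8%). Between 50 and 200 protease UMIs per 10000, near the line, lay 6 protease-poor, 4 protease-rich and 1 progenitor-range cells in femur, and 1, 5 and 0 in ectopic bone. Protease-rich cells were deeper, with a median of 11143 UMIs in femur and 15052 in ectopic bone, against 7371.5 and 7436 in protease-poor cells. Neutrophil RNA moved with the split. The summed level of 10 neutrophil marker genes was 75865 CPM in protease-poor and 21716 CPM in protease-rich femur cells, and 23672 and 1141 CPM in ectopic cells. Members with at least 100 UMIs of S100a8 and S100a9 numbered 6 protease-poor and 5 protease-rich cells in femur, and 2 and 0 in ectopic bone.

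Transcripts of dividing cells were higher in protease-rich than in protease-poor cells, but not in every cell. An Mki67 UMI was found in 17 of 30 femur and 11 of 20 ectopic protease-rich cells. Mki67, a marker of cycling cells, stood at 501.5 CPM in protease-rich and 56.9 CPM in protease-poor femur cells, and at 473 and 16.3 CPM in ectopic cells. Top2a, the DNA topoisomerase of dividing cells, stood at 771.4 and 65.5 CPM in femur and 604.3 and 16.3 CPM in ectopic bone. After thinning to 3000 UMIs, Mki67 had a UMI in 13 of 28 protease-rich and 4 of 35 protease-poor femur cells, and in 9 of 20 and 2 of 23 ectopic cells. The summed level of all 18 cell cycle genes listed, with no minimum of UMIs, was 7836.6 CPM in protease-rich and 1614 CPM in protease-poor femur cells, and 7144 and 976.4 CPM in ectopic cells. In the progenitor range this sum was 4418 CPM in femur and 7439 CPM in ectopic bone. Without the members rich in neutrophil RNA, the ratio of Top2a, protease-rich over protease-poor, was 13.2 in femur and 30.7 in ectopic bone. In the progenitor range of the femur, 1 of 7 cells held all 42 UMIs of Mki67 and 70 of the 75 of Top2a, while Mki67 had 4 to 20 UMIs in each of the 5 ectopic cells. The ectopic cells of this range were deeper, with a median of 41319 UMIs against 15564. After thinning, Mki67 had a UMI in 1 of 7 femur and 1 of 5 ectopic cells of the range, and Top2a in 1 of 7 and 4 of 5.

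Of the granule genes measured outside the choice, Ctsg and Cst7 were at least 2-fold higher in protease-rich cells of both libraries, and Srgn and Serpinb1a were not. Ctsg, cathepsin G, stood at 1570 CPM in protease-rich and 88.2 CPM in protease-poor femur cells, and at 1193 CPM and 0 UMIs in ectopic cells. It was uneven, with medians of 9 and 10 UMIs and up to 97 and 124 UMIs in a protease-rich cell of femur and ectopic bone. Mpo, which the choice limits from above, was higher as well, at 866.8 and 119.6 CPM in femur and 274.7 CPM and 0 UMIs in ectopic bone. Mpo was uneven too, with medians of 2 and 0.5 UMIs and up to 76 and 45 UMIs in a protease-rich cell. In femur, 1 protease-poor cell held 34 of the 42 Mpo UMIs of its range. Ms4a3, a gene of granulocyte progenitors, stood at 351.6 and 31.3 CPM in femur and 347.9 and 10.8 CPM in ectopic bone. Fcer1a was higher too, at 981.3 and 350.1 CPM in femur (ratio 2.80, 2.28 to 3.47) and 1331 and 618.4 CPM in ectopic bone (2.15, 1.75 to 2.67), and without members rich in neutrophil RNA these ratios were 1.94 and 1.92. Cd63, a granule membrane protein used to read degranulation, stood at 1447 and 634.7 CPM in femur and 1517 and 819.1 CPM in ectopic bone. Cxcr4, the receptor of the CAR cell chemokine CXCL12, stood at 258.9 and 133.8 CPM in femur (1.94, 1.35 to 2.81) and 180.1 and 43.4 CPM in ectopic bone (4.15, 1.97 to 10.1).

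Several secreted genes and, among genes picked after their values were seen, Cd7 and C5ar1 were higher in protease-poor cells. Cd7, a surface molecule known from lymphocytes, stood at 281.8 CPM in protease-poor and 13.6 CPM in protease-rich femur cells, and at 347.2 and 15.3 CPM in ectopic cells, with 0 UMIs in the progenitor range. Ccl6 stood at 2690 and 422.5 CPM in femur and 3933 and 204.5 CPM in ectopic bone, and Ccl4 at 5012 and 1208 CPM and 9970 and 3854 CPM. C5ar1, the receptor of complement C5a, stood at 293.2 and 54.5 CPM in femur and 401.4 and 21.4 CPM in ectopic bone. Csf2rb was also higher in protease-poor cells, at 856.8 and 460.6 CPM and at 1220 and 558.5 CPM. Of the secreted genes measured, 5 of 11 in femur and 6 of 10 in ectopic bone were at least 2-fold lower in protease-rich cells, beside 11.1% of all measured genes in each library. Without members rich in neutrophil RNA the ratios of protease-rich over protease-poor cells were 0.0879 and 0.0565 for Ccl6, 0.185 and 0.344 for Ccl4, 0.0262 and 0.044 for Cd7 and 0.0502 and 0.0544 for C5ar1.

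**Figure D2:**
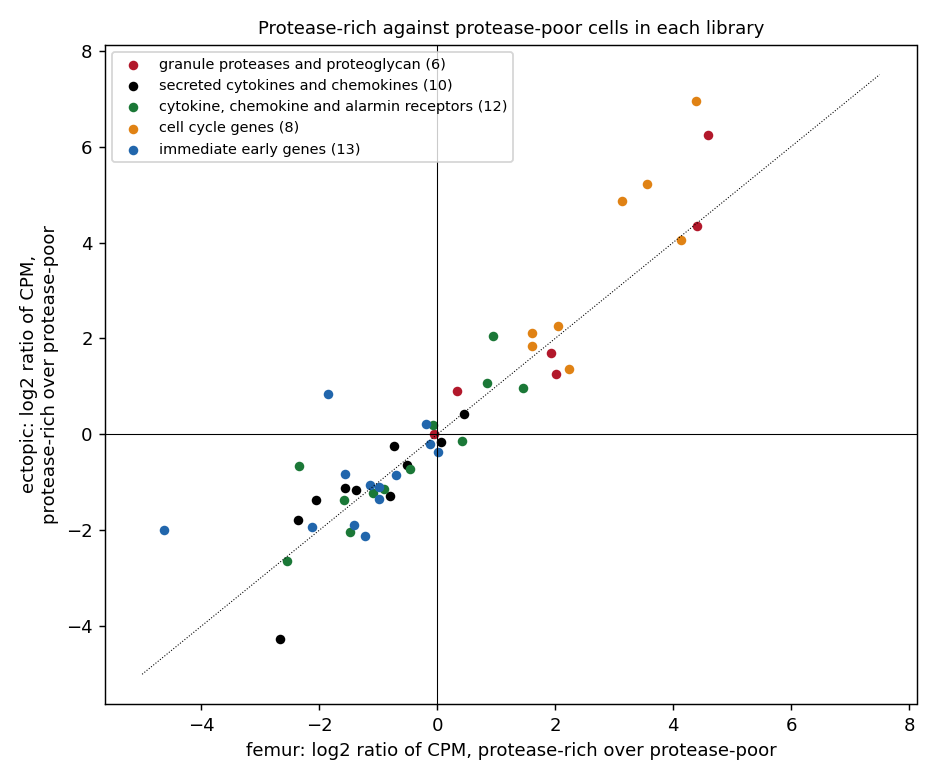
Each point is 1 gene, placed by its log2 ratio of CPM in protease-rich over protease-poor cells in femur (x) and ectopic bone (y), with the dotted line at equal ratios. The 8 cell cycle genes drawn, those with at least 50 UMIs over both ranges, lie above 0 on both axes, and 3 genes at 0 UMIs in protease-poor ectopic cells, 1 of the granule list and 2 of the cell cycle list, are not drawn.

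Immediate early genes, whose transcripts rise within minutes of stimulation or handling, were lower in protease-rich cells for 7 of 14 measured genes in femur and 7 of 13 in ectopic bone, and higher for none. Over all measured genes 11.1% were lower in each library, and 11.6% in femur and 12.1% in ectopic bone were higher. Jun stood at 850.4 CPM in protease-rich and 2525 CPM in protease-poor femur cells and at 2680 and 4773 CPM in ectopic cells. Egr1 stood at 68.1 and 1688 CPM in femur and 631.7 and 2517 CPM in ectopic bone. Hdc stood at 2099 and 2186 CPM in femur (0.960, 0.868 to 1.06) and was lower in protease-rich cells of ectopic bone, at 1990 and 2951 CPM (0.674, 0.601 to 0.757). Il4 stood at 152.6 and 145.2 CPM in femur and 213.6 and 238.7 CPM in ectopic bone. Without members rich in neutrophil RNA, Hdc and Il4 were both lower in protease-rich than in protease-poor cells of each library, the femur included. The ranges were cut from the cells' own counts, so these comparisons are descriptions and no test.

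**Figure D3:**
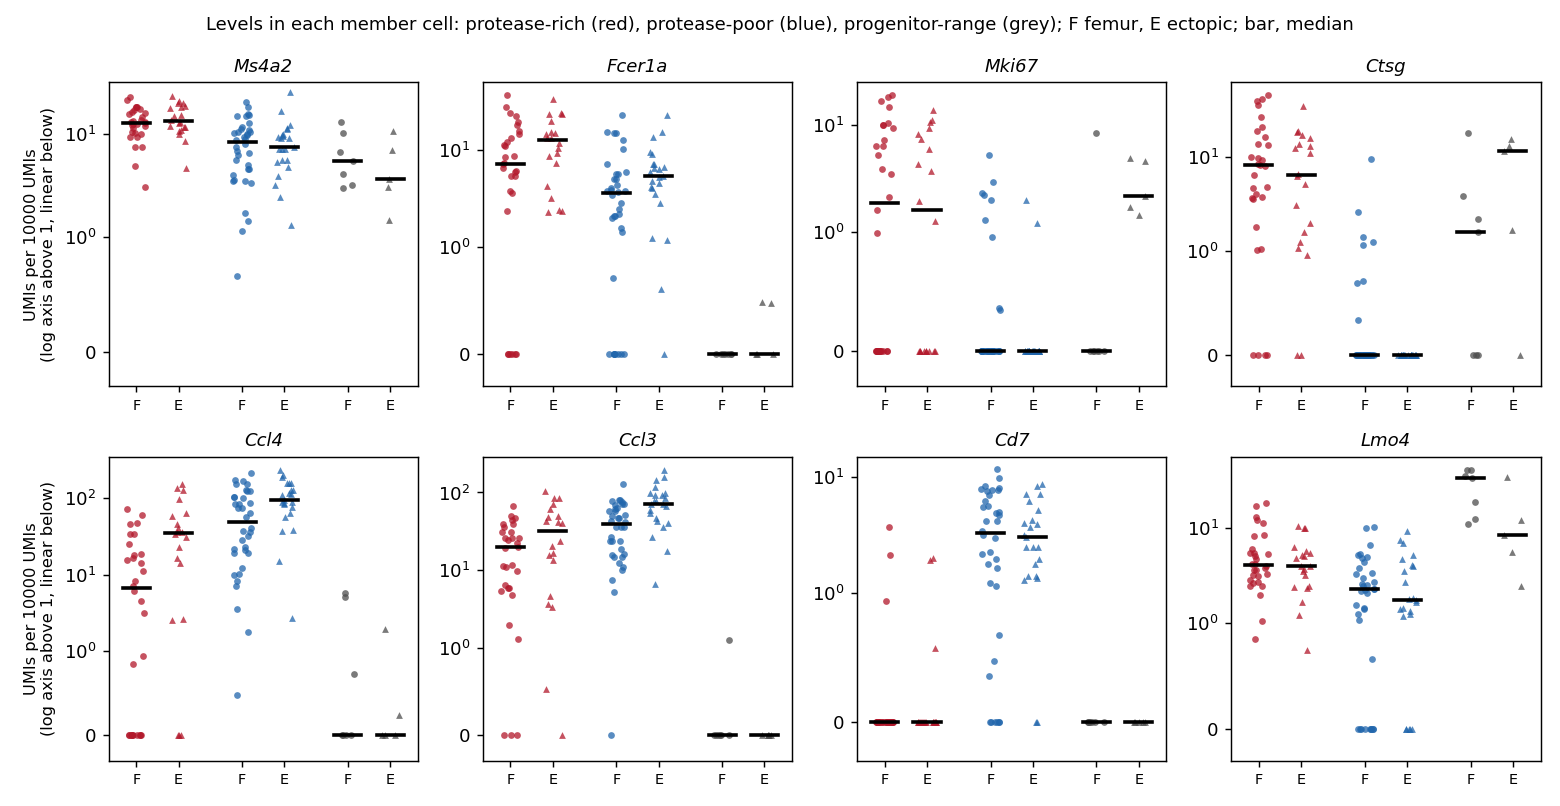
Each point is 1 member cell, with the UMIs of the named gene per 10000 UMIs on the y axis (log above 1, linear below), by range and library, and the bar at the median. The medians of Ccl4, Ccl3 and Cd7 are highest in protease-poor cells and those of Lmo4 in progenitor-range cells of both libraries, while the medians of Ctsg and Mki67 are highest in protease-rich cells of the femur and in progenitor-range cells of ectopic bone.

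The progenitor range was small and deep, with 7 femur cells (median 15564 UMIs) and 5 ectopic cells (median 41319 UMIs). Its Kit and Cd34 UMIs and its lack of Cd200r3 follow from the choice. Fcer1a had 0 UMIs in the 7 femur cells and 4 UMIs in all in the ectopic cells, and Cyp11a1 had 5 and 0 UMIs. Ccl3 had 2 and 0 UMIs. Cpa3 had a UMI in each of the 12 cells, with medians of 12 and 16 UMIs, whereas Mcpt8 had a UMI in 3 of 7 and 4 of 5 and Prss34 in 2 of 7 and 1 of 5. Lmo4, a LIM-domain transcription regulator, stood at 2503 and 1464 CPM in femur and ectopic bone, against 281.8 and 271.2 CPM in protease-poor cells. Slc22a3, an organic cation transporter that carries histamine, stood at 629.2 and 323.4 CPM against 17.1 and 38 CPM. In early progenitors outside the members (97 femur and 31 ectopic cells with a UMI of both Kit and Cd34), Gata2 stood at 74.2 and 45 CPM and Cpa3 at 29.3 and 2.76 CPM, below the 594.2 and 397.2 CPM of Gata2 and the 720.1 and 675.2 CPM of Cpa3 in the progenitor range. Cpa3 belongs to the choice.

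The comparison of the tissues asked whether basophil-marker cells of BMP-2 induced marrow differ from those of the femur. Of 5161 genes with at least 50 UMIs over both sums, 59 (1.14%) were 2-fold or more higher in ectopic than in femur members, 125 (2.42%) were lower by as much, which is 184 (3.57%) either way, and the median log2 ratio was 0.01. A fold of 2 is a rule of size, not a test. None of the measured genes of the granule (7), IgE receptor (19), cytokine receptor (15) or mediator (9) lists passed it in either direction. Over 7 lists of function, 98 genes were measured, 3 were higher, 3 lower, and the median was 0.06, so these counts are read only against the shares over all genes.

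**Figure D4:**
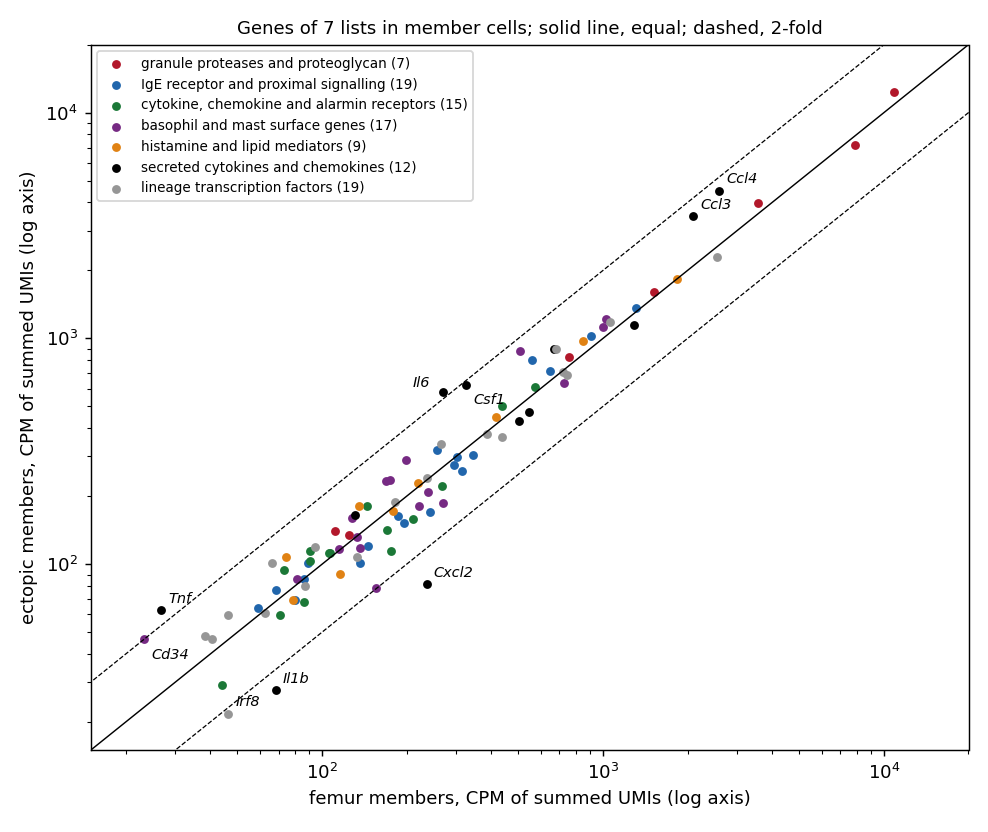
Each point is 1 gene of 7 lists, placed by its CPM in femur members (x, log axis) and ectopic members (y, log axis), with the solid line at equal levels and dashed lines at 2-fold. Most points lie between the dashed lines, and Tnf, Il6, Cd34, Cxcl2, Il1b and Irf8 lie outside them.

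Of the secreted genes, 12 were measured, 2 were higher and 2 lower, beside 1.14% higher and 2.42% lower over all genes. The median log2 ratio was 0.38 against 0.01 over all genes. Il6, an inflammatory cytokine, stood at 270.5 CPM in femur members and 576.8 CPM in ectopic ones, a ratio of 2.13 (1.81 to 2.52). It had a UMI in 39 of 73 and 34 of 48 members, and the cell with most held 11.2% and 14.9% of the UMIs. The 5 cells with most held 46.4% and 60.5% of them. In other cells Il6 stood at 0.529 and 2 CPM. Csf1 had a ratio of 1.92 (1.65 to 2.24), Ccl4 of 1.75 (1.65 to 1.85) and Ccl3 of 1.67 (1.57 to 1.77), each under the fold of 2. Tnf stood at 26.7 and 62.5 CPM, on 23 and 43 UMIs in 10 and 7 cells.

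These differences in summed levels were seen on both sides of the protease line. In protease-poor cells Il6 stood at 267.6 and 634.6 CPM in femur and ectopic bone (2.37, 1.79 to 3.15), and in protease-rich cells at 368 and 854.5 CPM (2.32, 1.88 to 2.87). A single ectopic protease-poor cell held 55 of the 117 Il6 UMIs of its range, and the femur maximum was 26 of 94. Medians of Il6 were 1.31 and 1.78 UMIs per 10000 in protease-poor cells and 0.833 and 4.04 in protease-rich cells. The ratio of Ccl3 was 2.35 (2.17 to 2.55) in protease-poor and 1.68 (1.52 to 1.85) in protease-rich cells, and that of Csf1 was 2.21 (1.82 to 2.68) and 3.00 (2.27 to 3.99). These ratios include the members rich in neutrophil RNA, among them 6 protease-poor cells in femur and 2 in ectopic bone. Without such members the protease-poor ratios of Il6, Ccl3 and Csf1 were smaller, each under 2-fold. In protease-rich cells those of Il6 and Csf1 stayed past 2-fold. With all members, 1 ectopic protease-rich cell held 60 of the 190 Csf1 UMIs of its range, and the femur maximum was 8 of 71. Medians of Csf1 in protease-rich cells were close, at 1.60 UMIs per 10000 in femur and 1.81 in ectopic bone. The progenitor range had 4 and 0 UMIs of Il6 and 2 and 0 of Ccl3, and it held a larger part of the ectopic than of the femur UMIs. The ratios of Il6, Ccl3 and Csf1 over all members, which include it, lay below those of both other ranges. Cd69, an early activation antigen, had a ratio of 1.73 (1.53 to 1.96) in all members, and Jun of 1.71 (1.6 to 1.84), from 1596 and 2737 CPM in the femur and ectopic sums. Handling of the 2 tissues cannot be told apart from the tissue.

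RNA of neutrophils moved with the tissue comparison. The sum of 10 neutrophil marker genes was 41757 CPM in femur members and 7236 CPM in ectopic members, against 142315 and 129324 CPM in other cells. Of the 10, 9 were at least 2-fold lower in ectopic members, beside 2.42% over all genes. Without the cells of highest doublet score the median log2 ratio of the list turned from −2.53 to 1.34. That alternative left out 10 of the 12 femur members rich in neutrophil RNA and 0 of the 2 ectopic ones. At least 100 UMIs of S100a8 and S100a9 together were held by 12 femur members (272 to 6684) and 2 ectopic members (968 to 2406), while the rest held at most 51 and 43. Without these 14 cells, 51 genes were higher and 69 lower, and the log2 ratio of Il6 was 0.83, of Csf1 0.61, of Ccl4 0.52 and of Ccl3 0.52, against 1.09, 0.94, 0.81 and 0.74 with them. Il6 no longer passed 2-fold then, and over all alternatives its log2 ratio ran from 0.82 to 1.29. Cxcl2 and Il1b, the 2 lower secreted genes, which neutrophils and monocytes also carry (530 and 207 CPM in other femur cells), went from −1.53 to −0.61 and from −1.31 to 1.49. The part of the neutrophil RNA in the tissue differences was not tested otherwise.

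**Figure D5:**
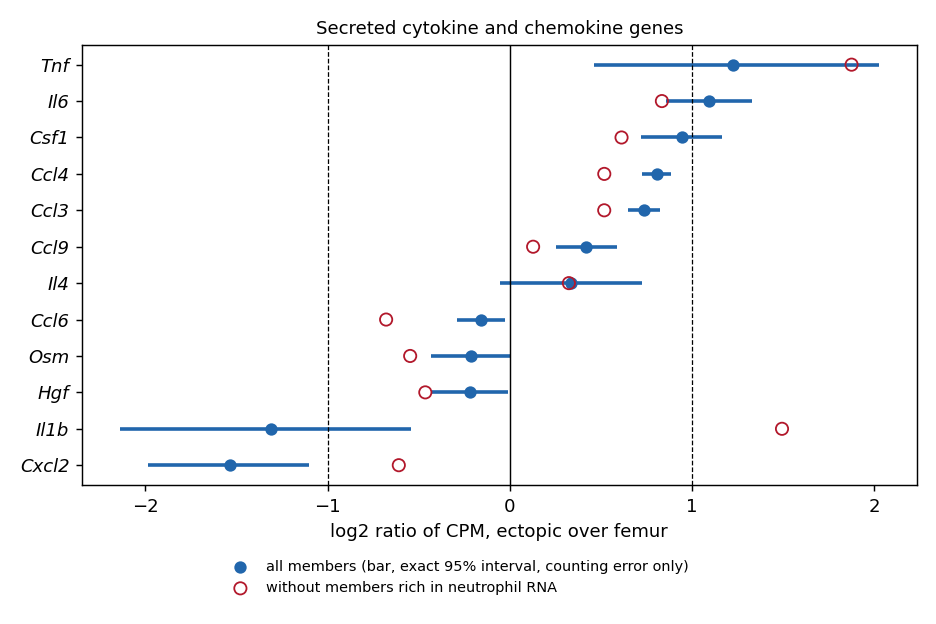
Filled points are log2 ratios of CPM, ectopic over femur, of the 12 measured secreted genes with their exact 95% intervals, and open circles are the ratios without members rich in neutrophil RNA. Il6, Csf1, Ccl4 and Ccl3 stay above 0, and Il1b changes side.

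Of the transcription factors, 19 were measured and 1 was lower, Irf8, beside 2.42% lower over all genes. Irf8, a factor of monocyte and dendritic cell fate, stood at 46.4 and 21.8 CPM (0.469, 0.241 to 0.868). It had 40 UMIs in femur, 60.0% of them from a single cell. With at least 20 protease UMIs required of a member, its log2 ratio was 0.84 in place of −1.09. Gata2 had a ratio of 1.11 (1.01 to 1.23), Cebpa of 1.28 (1.07 to 1.55) and Runx1 of 0.906 (0.849 to 0.967). Ikzf2, the factor Helios, had a ratio of 1.32 (1.18 to 1.48) at 678.1 and 896.5 CPM. The median over the list was 0.03.

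On the surface, Cd34 was the 1 gene of 17 past 2-fold, beside 3.57% either way over all genes. Cd34 had 20 and 32 UMIs in 8 and 7 cells, and a log2 ratio of −0.83 once the progenitor range was left out. Itga2b, the integrin CD41, had a ratio of 1.46 (1.18 to 1.79), and Cd200r3 of 1.19 (1.08 to 1.31). Cxcr4 stood at 176.5 and 114.8 CPM (0.650, 0.489 to 0.859), with a ratio of 0.324 in protease-poor cells and 0.695 in protease-rich cells.

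Lists outside basophil function varied more with single cells. Of glucocorticoid-responsive genes, 3 of 9 measured were lower, Il1r2, Klf9 and Sgk1, and the median log2 ratio was −0.91, beside 2.42% lower over all genes. Il1r2 turned to 0.59 without the highest doublet scores and to 0.18 with thinning, and Klf9 to 0.65 with at least 20 protease UMIs. Klf9, a Krüppel-like factor, stood at 68.5 and 29.1 CPM. The median of this list was −0.15 without cells of highest doublet score. Of 18 cell cycle genes, 1 was higher, Ccnb1, at 24 and 45 UMIs, beside 1.14% over all genes, and its log2 ratio was −0.26 with thinning. The median was 0.41. Of 14 measured immediate early genes, 1 was lower, Klf2, with a log2 ratio of −1.35, or −0.09 without members rich in neutrophil RNA.

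The 10 highest ratios among genes of at least 100 CPM in 1 library began with genes of single cells. Prg2, the eosinophil granule major basic protein, had 1 UMI in femur and 623 in ectopic bone, all in 1 progenitor-range cell that also held the 36 UMIs of Epx, eosinophil peroxidase. H2-Ab1 and H2-Eb1, chains of MHC class II, had 172 and 200 UMIs in ectopic members, 87.8% and 96.5% of them in 1 cell each. The cell with most H2-Eb1 was protease-rich and held all 23 ectopic UMIs of Cd209a, a dendritic cell lectin. H2ac24, a histone gene (268.2 and 1158 CPM), was higher in other ectopic cells too, at a ratio of 2.92. Of its UMIs in ectopic members, 74.5% were in 5 cells. Uck2, a uridine-cytidine kinase, stood at 110.3 and 279 CPM (2.53, 1.97 to 3.27), with a ratio of 1.05 in other cells. It had a UMI in 40 and 32 members, and the 5 cells with most held 31.6% and 56.25% of its UMIs. Hmgb3, a chromatin protein, Irf1, Cnpy2 and Cacnb2 had ratios of 2.55, 2.5, 2.37 and 2.29. The 5 cells with most held 78.8%, 48%, 48.4% and 57.3% of their ectopic UMIs. Irf1, an interferon regulatory factor, stood at 58.1 and 145.3 CPM, with 1.05 in other cells.

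The 10 lowest ratios were those of Plcb1, Pde3b, Rnf144a, Cpq, Dach1, Auts2, St8sia6, Nup98, Usp32 and Maml2. Plcb1 and Dach1 rested on 1 cell, with 59.6% and 55.5% of their femur UMIs. Pde3b, a cyclic nucleotide phosphodiesterase, stood at 142.8 and 43.6 CPM (0.305, 0.198 to 0.458), in 38 of 73 and 14 of 48 members. St8sia6, a sialyltransferase, stood at 118.4 and 53.8 CPM, and its log2 ratio went from −1.14 to −0.19 without the progenitor range. Cpq stood at 112.6 and 43.6 CPM (0.387, 0.248 to 0.588), 2.87-fold and 1.17-fold the level of other cells.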

How the data were processed

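Femur and ectopic marrow were each measured in 1 droplet library. The deposited values are raw UMI counts, unnormalised, that the authors made with Cell Ranger (version 7.0.1 in the file headers) on GRCm39, per the submitters' processing notes. From these counts cells and members were chosen by the thresholds of the report, UMIs were summed over members, and CPM, ratios and exact 95% intervals (Poisson, conditional binomial, Clopper-Pearson) were computed with Python 3.11.15, numpy 2.4.6, scipy 1.17.1 and pandas 2.3.3, and drawn with matplotlib 3.10.9. The computations were tested on simulated data. Doublets were kept. An alternative left out cells of highest simulated-doublet score (scikit-learn 1.9.0), 910 in femur and 369 in ectopic bone, with 16 and 6 members.

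The members and gene lists were chosen with earlier results of these data known, and the ranges after the values were seen. Genes named were those of the first 8 lists with 50 UMIs, up to 2 highest and lowest of every other list, the 10 highest and lowest ratios at 100 CPM, and the 20 highest folds over other cells. Genes named for the ranges, such as Cd7, Lmo4 and C5ar1, were chosen after their values were seen. A gene among the 10 highest ratios is not reported here. B lineage cells were picked by Cd79a and Cd79b, with fewer marker genes than first planned, after the values were seen.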

Additional observations from a re-analysis of the deposited data

How the results depend on the processing

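No paired analysis was possible because each tissue is 1 library. Alternatives without members rich in neutrophil RNA, without progenitor-range members and without each gene's top member were added after seeing the data. The log2 ratio of the member shares stayed between −0.00 and 0.24. Against 59 genes higher and 125 lower, thinning to 3000 UMIs gave 14 and 32, a minimum of 20 UMIs gave 264 and 377, no minimum gave 1192 and 1110, and a fold of 1.5 gave 400 and 420. Leaving out the highest doublet scores gave 44 higher, 13 of them among the 59, and 72 lower, 23 of them among the 125, and leaving out members rich in neutrophil RNA gave 69 lower, 40 of them among the 125. Without each gene's top member 32 were higher. Some log2 ratios past 2-fold changed sign. Without the highest doublet scores the median of the neutrophil list was 1.34, and Cd34 was −0.12, Il1r2 0.59, Lcn2 0.94, S100a8 1.52, S100a9 1.64, Camp 0.75, Ngp 1.08, Ltf 1.34, Mmp8 2.73, F13a1 0.28, Tnfaip2 0.14, Ly6c2 0.85, Ly6g 2.46 and Retnlg 1.79. With at least 20 protease UMIs Irf8 was 0.84 and Klf9 0.65. With thinning Il1r2 was 0.18 and Ccnb1 −0.26. Without members rich in neutrophil RNA Il1b was 1.49, Ngp 0.22 and Ly6g 1.49, and without progenitor-range members Cd34 was −0.83. The causes of these changes were not tested. Of the other values, 2584 for genes and 247 for list medians moved by less than counting error, and 425 and 20 moved further. With 1 library a tissue, the spread between animals is unknown, and genes under 50 UMIs in the sums were too shallow for a ratio.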
